A study of Homo sapiens with 66 samples.

Results

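The 10 genes studied here, of the AP-1 and immediate early class, were followed by RNA sequencing of multiple myeloma cells treated with inhibitors of prolyl-tRNA synthetase (ProRS) or of the proteasome. They were FOS, FOSB, FOSL1, JUN, JUNB, JUND, EGR1, IER2, IER3 and KLF6. The members were fixed by name, with earlier results of these data known. They were found by their Ensembl gene identifiers, and all 10 were present among the 20167 genes of the count table. The 66 libraries came from 2 established myeloma lines, AMO1 (wild type by its label) and L363-CFZr, a subline of L363 labelled as resistant to carfilzomib (CFZ). Each of 22 groups held 3 replicates of one line, one treatment and one time point, 6 h or 24 h. AMO1 cells received DMSO, the solvent control, or NCP26, HFG (halofuginone), NCP22, halofuginol or CFZ, and L363-CFZr cells received the same agents except CFZ. By the study's methods NCP26, HFG, NCP22 and halofuginol were used at 1 µM, while the labels give no dose for CFZ, for which the study states a nanomolar one. NCP26 is an ATP-competitive ProRS inhibitor and NCP22 its analogue, HFG is a derivative of febrifugine that occupies the proline and tRNA sites of ProRS, and halofuginol is HFG with its ketone replaced by a hydroxyl group. CFZ inhibits the proteasome. How the resistant line was derived, and whether it is a single clone, is not given in the sources used here.

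AP-1 is a family of dimeric transcription factors built from FOS proteins (FOS, FOSB, FOSL1, FOSL2) and JUN proteins (JUN, JUNB, JUND), with ATF and MAF proteins as further partners. The immediate early genes are those whose transcripts appear without new protein synthesis when growth factor, stress or kinase signals reach the nucleus, and their mRNAs are usually short-lived. FOS and EGR1 are classic targets of serum response factor at CArG boxes, while JUN is induced through ATF2-JUN dimers after activation of stress kinases such as JNK. In myeloma cells JUN and JUNB have been studied as regulators of growth and cell death.

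Promoter sequences of the JUN genes and EGR1 are shown because their calls with NCP26 and HFG at 6 h in AMO1 cells differed in direction. Those of JUNB were lost with an offset for GC content, as given below. They are the 250 bases before the RefSeq start on the gene's strand, in GRCh38.p14, with matches to a CArG box, an AP-1 site (TGANTCA), a cyclic AMP response element (CRE, TGACGTCA) or a CRE-like site (TGANNTCA, which includes the CRE) in capitals. JUN (chr1:58784048-58784297, minus strand) holds one CRE-like match at -67 to -60, JUND (chr19:18281623-18281872, minus strand) a CRE at -200 to -193 and a CRE-like match at -54 to -47, EGR1 (chr5:138465229-138465478, plus strand) 2 CArG boxes, and JUNB (chr19:12791236-12791485, plus strand) none of these letters.
JUN: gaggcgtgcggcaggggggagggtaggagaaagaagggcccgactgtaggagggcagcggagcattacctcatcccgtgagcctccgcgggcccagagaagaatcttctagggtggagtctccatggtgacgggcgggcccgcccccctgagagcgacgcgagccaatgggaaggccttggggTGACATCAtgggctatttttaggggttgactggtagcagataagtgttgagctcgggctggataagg
JUND: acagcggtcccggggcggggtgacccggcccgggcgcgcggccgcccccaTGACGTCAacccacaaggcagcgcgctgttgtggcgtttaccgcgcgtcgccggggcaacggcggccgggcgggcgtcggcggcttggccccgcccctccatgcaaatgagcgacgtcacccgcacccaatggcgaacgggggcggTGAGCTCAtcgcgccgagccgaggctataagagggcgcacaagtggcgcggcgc
EGR1: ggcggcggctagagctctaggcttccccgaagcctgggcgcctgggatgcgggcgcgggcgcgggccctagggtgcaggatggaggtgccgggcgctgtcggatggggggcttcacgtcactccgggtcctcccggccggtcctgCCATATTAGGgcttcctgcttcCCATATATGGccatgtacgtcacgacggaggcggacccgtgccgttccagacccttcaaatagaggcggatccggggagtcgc
JUNB: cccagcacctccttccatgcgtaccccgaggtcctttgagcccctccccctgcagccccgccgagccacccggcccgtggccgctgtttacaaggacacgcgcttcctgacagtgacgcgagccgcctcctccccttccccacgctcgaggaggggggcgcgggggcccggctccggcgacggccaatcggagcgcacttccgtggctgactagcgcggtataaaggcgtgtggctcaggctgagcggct

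RefSeq windows of 250 bases before and 50 after the start were on hand for 8 members and not for FOSL1 and IER3. KLF6 held one CRE-like match, TGACATCA, at -172 to -165, and the windows of FOS, FOSB and IER2 held none of these motifs. Sites further than 250 bases before the start lie outside the windows and were not searched. Of 35116 such windows of all genes, read on both strands, 1.29% held a CArG box, 7.71% an AP-1 site, 1.85% a CRE and 11.5% a CRE-like site. Other motifs were searched in the same way. The heat shock letters GAANNTTC (6.77% of windows) matched JUN at -150 to -143, the amino acid response letters TGATGNAA (3.62%) matched no member window, and the GC box GGGCGG (45%) matched all of these windows except those of EGR1 and JUNB. A match of letters is a description of the window and not of binding.

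Total counts per library ran from 1666325 to 6596543 (median 3165566), so that one count was worth 0.156 to 0.562 on the TMM-scaled counts-per-million (CPM) scale. All 8 plasma cell markers had a median above 5 CPM in both lines, with a sum of 2491 to 5256 CPM in AMO1 libraries and 2333 to 3765 CPM in L363-CFZr libraries, and the summed markers of B, T, monocytic, stromal and erythroid cells reached at most 9.62 CPM in any library. The running numbers in the sample titles, read with the sample suffixes of the column headers, divide the libraries into 3 sets of 22. The suffixes run over the same 22 numbers in each set, while the titles alone show no break between the first and the second set. What the sets stand for is not given in the sources used here. The first set holds all AMO1 6 h libraries, the AMO1 24 h DMSO libraries and CFZ replicate 1 at 24 h. The second holds the other AMO1 24 h libraries with the L363-CFZr 6 h libraries of DMSO, NCP26 and NCP22 replicates 1 and 2, and the third the remaining L363-CFZr libraries. AMO1 24 h treatments and L363-CFZr HFG and halofuginol at 6 h were therefore compared with DMSO across sets. In the study's methods, which describe AMO1 cells, lysates of 6 h were frozen overnight and those of 24 h kept on ice. Time and handling can therefore not be told apart in AMO1 cells. The handling of L363-CFZr lysates is not given in the sources used here.

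Levels are given as CPM on one scale for all 66 libraries, and changes as log2 fold changes of the treated against the DMSO group of the same line and time, with the standard error, from the quasi-likelihood F test of edgeR, with p-values adjusted over all tested genes by the Benjamini-Hochberg method. A change is called at an adjusted p under 0.05. The same 3 DMSO libraries served all treatments of a line and time, so these comparisons are not independent of each other. The labels describe triplicates, and the study speaks of biological triplicates for its experiments in general, without saying for these libraries whether cultures were separate, so p-values measure the spread between these libraries only. In bulk RNA, fewer expressing cells and less RNA per cell cannot be told apart.

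JUNB, JUND, KLF6, IER2 and JUN were the abundant members. Per kilobase of the canonical transcript, JUNB had the highest mean level in AMO1 cells with DMSO at 6 h (78.3 CPM per kb), followed by JUND (46.5), KLF6 (30.8), IER2 (23.9) and JUN (8.37). FOS (3.39 CPM per kb), IER3 (3.15), EGR1 (1.25) and FOSB (0.80) were low there. In L363-CFZr cells with DMSO at 6 h the order was JUNB (75.3 CPM per kb), KLF6 (60.5), JUND (49.8), IER2 (29.6) and JUN (10.8).

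FOSL1, which encodes the FOS family protein FRA-1, was near zero throughout. It had 0 counts in 25 of 36 AMO1 libraries and 17 of 30 L363-CFZr libraries and at most 3 counts in any, where a count of 0 allows a level of up to 0.469 to 1.69 CPM by library (3 counts, counting error only). FOSB had 0 to 53 counts and reached the filter on low counts in 7 of 18 comparisons with DMSO, EGR1 in 10, IER3 in 15 and FOS in 17, while JUN, JUNB, JUND, IER2 and KLF6 were tested in all 18. FOSB was called in none of its 7. A gene that passed the filter may have passed through the group in which it was high. This limit bears on the called changes of FOS, EGR1 and IER3, also where compounds, lines or times are compared.

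Read assignment sets a limit for some members. Of the 31-mers of the canonical transcript, 49.4% in IER2, 34.9% in IER3 and 12.7% in JUNB also occur in an overlapping gene on the opposite strand, and none (IER2, JUNB) or 0.371% (IER3) on the same strand. The libraries were directional, but the strand setting of the read assignment is not given in the sources used here, so reads of these genes and their antisense partners may not be told apart. HOOK2, the partner of JUNB, is in the count table, and those of IER2 and IER3 are not. FOSL1 shares 6.86% of its 31-mers with the pseudogene FOSL1P1.

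**Figure D1:**
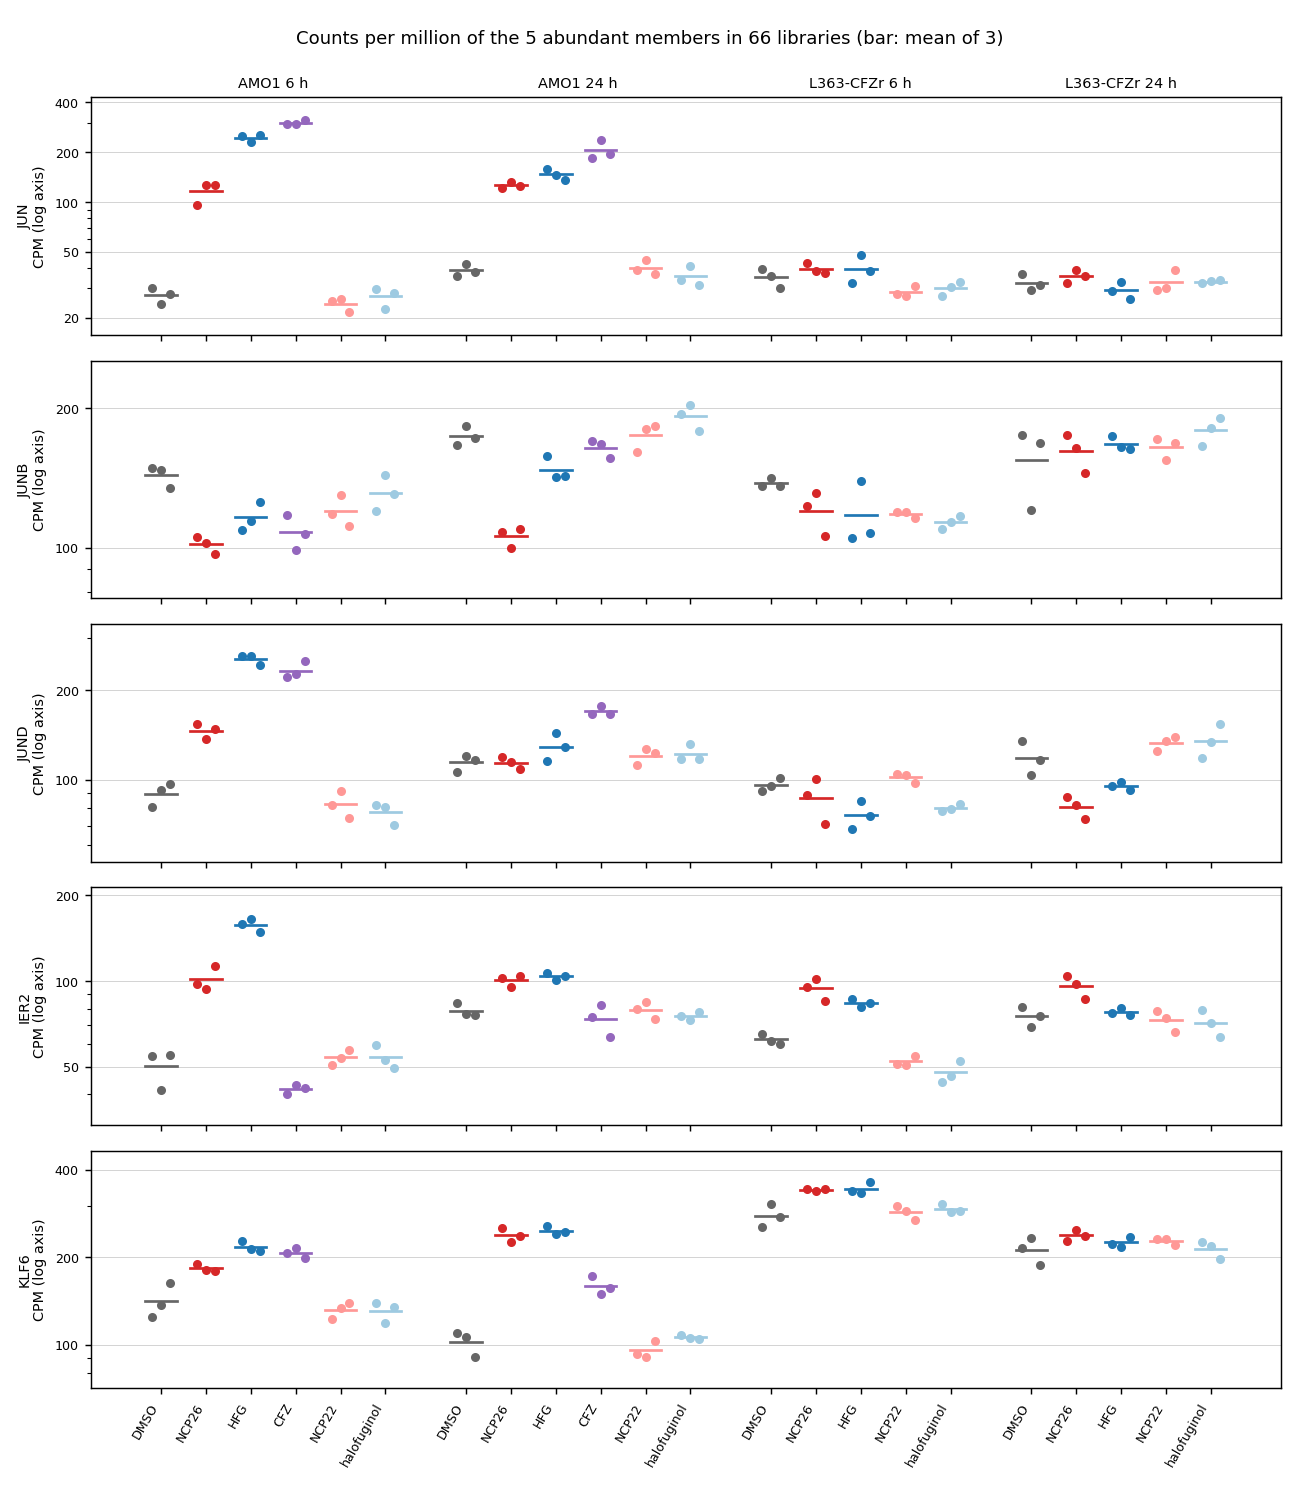
Level in CPM (log axis) of JUN, JUNB, JUND, IER2 and KLF6 in each of the 66 libraries, with one point per library and a bar at the mean of 3 replicates, by line, time and treatment. JUN lies between 26 and 47.5 CPM in all L363-CFZr libraries and reaches 313 CPM in AMO1 cells with CFZ at 6 h.

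**Figure D2:**
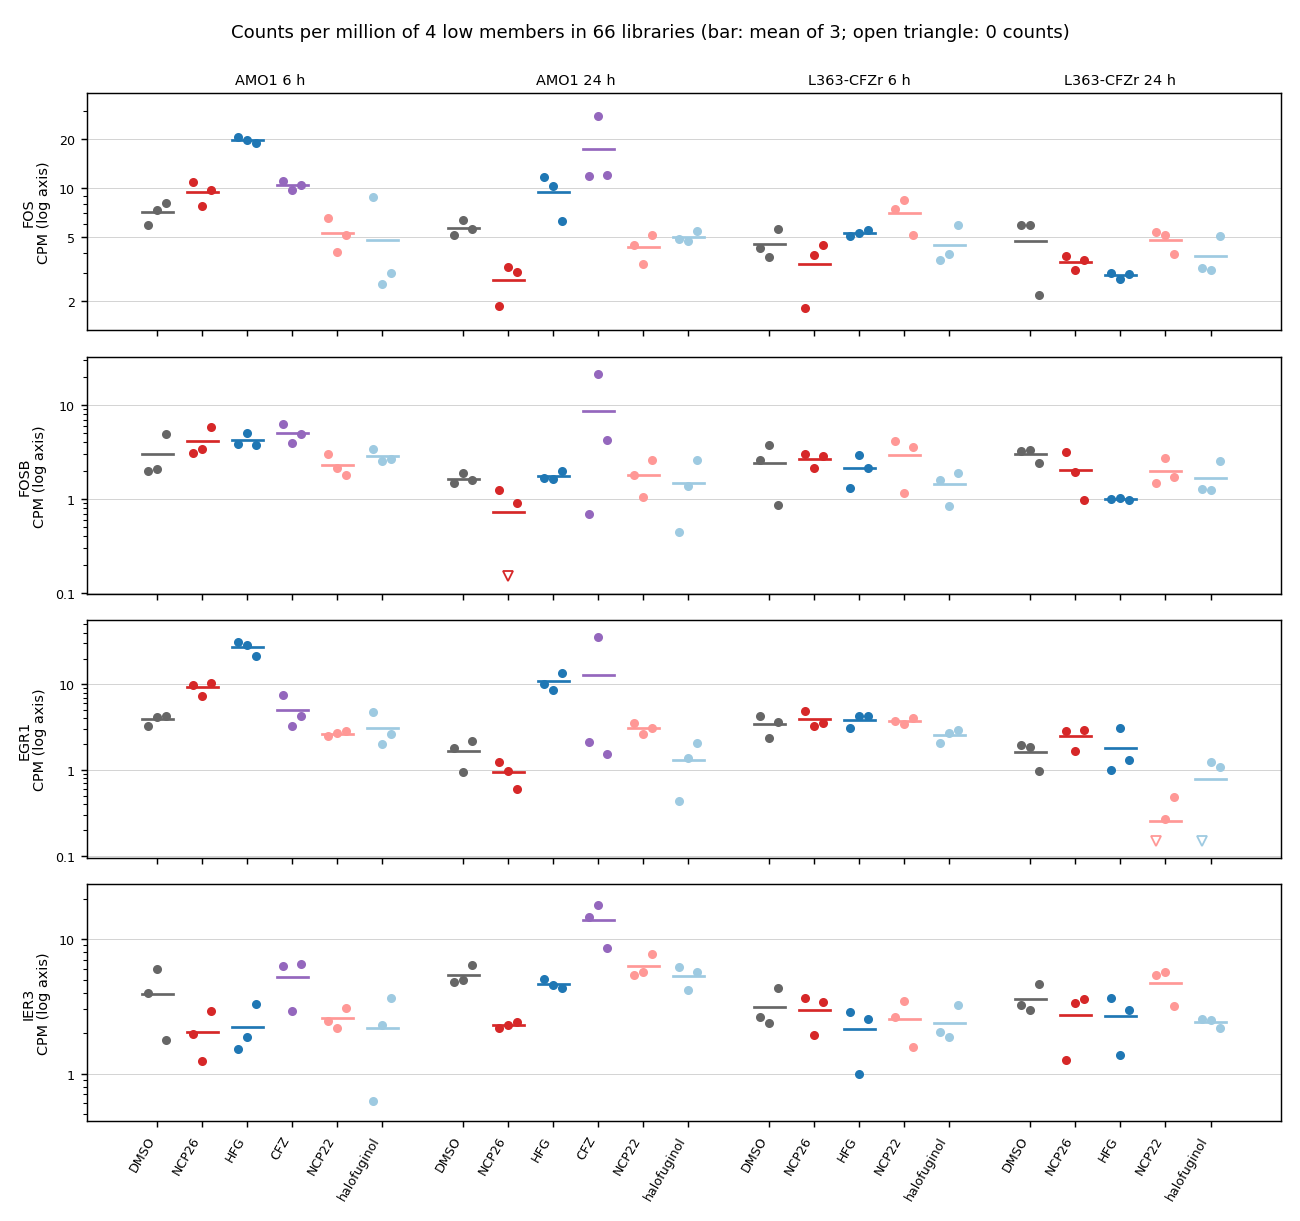
Level in CPM (log axis) of FOS, FOSB, EGR1 and IER3 in each of the 66 libraries, with one point per library, a bar at the mean of 3 replicates and an open triangle for a library with 0 counts. EGR1 stands highest in AMO1 cells with HFG at 6 h (21.4 to 31.05 CPM), apart from a single CFZ library at 24 h at 35.3 CPM.

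In AMO1 cells at 6 h, JUN rose with NCP26, HFG and CFZ, and JUNB fell. JUND and KLF6 also rose with all 3 agents, IER2 and EGR1 rose with NCP26 and HFG, and FOS rose with HFG. Of the tested members, 6 of 8 were called with NCP26, where 37.3% of all genes tested were called, 7 of 9 with HFG (54.3% of all genes) and 4 of 9 with CFZ (26.9%). The median log2 fold change of the tested members was 0.60 with NCP26, 1.5 with HFG and 0.54 with CFZ, and that of all genes tested lay between -0.01 and 0.01.

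JUN encodes the archetypal JUN subunit of AP-1. Its level was 30.1, 24.1 and 27.6 CPM in the 3 DMSO libraries, 95.3, 127 and 127 CPM with NCP26, 250.3, 231 and 253 CPM with HFG and 298, 295 and 313 CPM with CFZ. Every treated library lay above every DMSO library, and those of NCP26 lay below those of HFG and CFZ. The log2 fold change was 2.10 ± 0.14 with NCP26 (SE, 4.30-fold, adjusted p = 6.89e-07), 3.20 ± 0.10 with HFG (9.19-fold, adjusted p = 9.41e-13) and 3.46 ± 0.09 with CFZ (11-fold, adjusted p = 7.73e-18). These calls held under every setting tried.

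JUND, the most steadily expressed JUN protein in many cells, stood at 80.9, 92.0 and 96.3 CPM with DMSO, 153, 137 and 148 CPM with NCP26, 261, 261 and 243 CPM with HFG and 222, 227 and 250.2 CPM with CFZ. The treated libraries did not overlap those of DMSO. JUND rose by 0.71 ± 0.10 with NCP26 (adjusted p = 0.000252), 1.54 ± 0.08 with HFG (adjusted p = 1.07e-09) and 1.37 ± 0.08 with CFZ (adjusted p = 3.16e-11) on the log2 scale.

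JUNB, a JUN protein that can oppose JUN at some targets, went the other way. Its level was 149, 147 and 135 CPM with DMSO, 105, 102 and 96.8 CPM with NCP26, 109, 114 and 126 CPM with HFG and 118, 99.0 and 107 CPM with CFZ. All treated libraries lay below the DMSO libraries. The change was -0.49 ± 0.10 with NCP26 (adjusted p = 0.00181), -0.26 ± 0.08 with HFG (adjusted p = 0.0147) and -0.42 ± 0.08 with CFZ (adjusted p = 0.000661). The canonical JUNB transcript holds 64.9% G and C, and log2 fold changes correlated with GC content across genes, which are not independent replicates, at -0.37 with NCP26, -0.32 with HFG and -0.12 with CFZ. With NCP22 and halofuginol at 6 h, against the same DMSO libraries, this correlation was -0.51 and -0.47. With an offset for GC content the JUNB change was -0.19 with NCP26 (adjusted p = 0.101) and -0.001 with HFG (adjusted p = 0.989), so these calls were lost, as was that with HFG without HFG replicate 2 (adjusted p = 0.0523), while that with CFZ was -0.31 (adjusted p = 0.00151).

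Among the FOS genes, FOS itself, the partner of JUN in classic AP-1, had 5.94, 7.34 and 8.14 CPM with DMSO and 20.7, 19.7 and 19.1 CPM with HFG, a rise of 1.5 ± 0.19 (2.83-fold, adjusted p = 7.37e-06). With NCP26 it had 10.9, 7.71 and 9.74 CPM (0.41 ± 0.25, adjusted p = 0.224) and with CFZ 11.1, 9.79 and 10.4 CPM (0.54 ± 0.24, adjusted p = 0.102). The CFZ libraries all lay above DMSO and those of NCP26 overlapped it, and neither change was called. FOSB was tested with all 3 agents, at 0.48 ± 0.43, 0.52 ± 0.37 and 0.74 ± 0.39 with NCP26, HFG and CFZ, and none of these was called.

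EGR1, a zinc finger factor of the immediate early response, had 3.30, 4.20 and 4.25 CPM with DMSO, 9.76, 7.40 and 10.4 CPM with NCP26 and 31.05, 28.5 and 21.4 CPM with HFG. The 3 groups did not overlap. EGR1 rose by 1.23 ± 0.28 with NCP26 (2.34-fold, adjusted p = 0.00465, and 0.12 in one fit of all AMO1 groups) and 2.78 ± 0.23 with HFG (6.86-fold, adjusted p = 1.03e-07). With CFZ it had 7.5, 3.26 and 4.23 CPM, and the change of 0.32 ± 0.36 was not called (adjusted p = 0.545).

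IER2, an immediate early nuclear protein, had 54.5, 41.6 and 55.2 CPM with DMSO, 98.0, 94.0 and 113 CPM with NCP26 and 159, 166 and 149 CPM with HFG. It rose by 1.02 ± 0.13 with NCP26 (adjusted p = 8.68e-05) and 1.68 ± 0.10 with HFG (adjusted p = 3.66e-09). With CFZ its level was 40.3, 43.1 and 42.3 CPM, overlapping DMSO, and the change of -0.27 ± 0.12 was not called (adjusted p = 0.108). Unlike JUN and JUND, IER2 and EGR1 were thus called with both ProRS inhibitors and not with CFZ. The difference between CFZ and the ProRS inhibitors was not tested.

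KLF6, a zinc finger factor of the KLF family, had 124, 137 and 163 CPM with DMSO, 189, 181 and 179.6 CPM with NCP26, 228, 213 and 209 CPM with HFG and 206, 215 and 198 CPM with CFZ. It rose by 0.38 ± 0.11 with NCP26 (adjusted p = 0.0166), 0.65 ± 0.09 with HFG (adjusted p = 2.87e-05) and 0.54 ± 0.09 with CFZ (adjusted p = 7.62e-05). The call with NCP26 was lost without DMSO replicate 1 (adjusted p = 0.0964) or without DMSO replicate 2 (adjusted p = 0.0783). IER3, an early response gene that affects survival, was at 1.23 to 6.51 CPM in these groups and was not called with HFG or CFZ and not tested with NCP26.

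**Figure D3:**
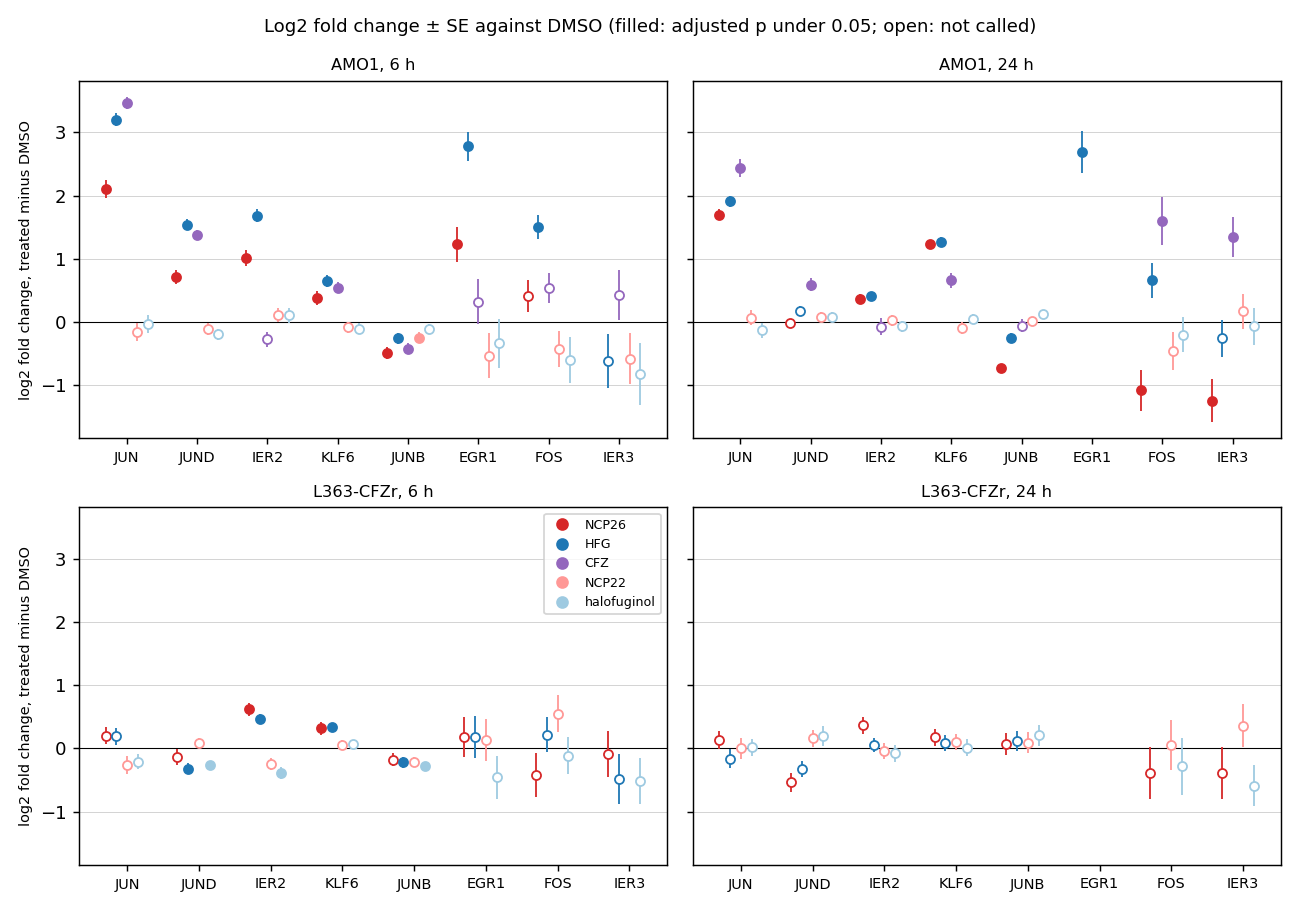
Log2 fold change against DMSO (y axis, bars are SE) of 8 members in AMO1 (upper panels) and L363-CFZr cells (lower panels) at 6 h (left) and 24 h (right), by treatment; filled points are called at an adjusted p under 0.05, and members that were not tested are left out. JUN in AMO1 cells at 6 h reaches 3.46 with CFZ, and none of the JUN points of L363-CFZr cells is filled.

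At 24 h in AMO1 cells JUN and KLF6 were still higher than DMSO with NCP26, HFG and CFZ, and the other members had moved apart. With NCP26, 6 of 7 tested members were called (60.7% of all genes), with HFG 6 of 8 (59.0%) and with CFZ 5 of 7 (27%). These comparisons cross sets except for CFZ replicate 1, and NCP22 and halofuginol libraries of the second set gave 0% and 0.183% of all genes called against the same DMSO libraries.

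JUN had 35.9, 42.2 and 37.6 CPM with DMSO, 122, 133 and 125 CPM with NCP26, 159, 146 and 135 CPM with HFG and 184, 239 and 195 CPM with CFZ. All treated libraries lay above DMSO. The rise was 1.70 ± 0.08 with NCP26 (3.25-fold, adjusted p = 2.42e-17), 1.91 ± 0.09 with HFG (3.76-fold, adjusted p = 1.97e-12) and 2.43 ± 0.15 with CFZ (5.40-fold, adjusted p = 5.02e-05). KLF6 had 109.5, 106 and 90.9 CPM with DMSO, 252, 225 and 235 CPM with NCP26, 256, 239 and 243 CPM with HFG and 172, 149 and 156 CPM with CFZ. It rose by 1.23 ± 0.07 (adjusted p = 5.37e-16), 1.27 ± 0.07 (adjusted p = 4.21e-11) and 0.66 ± 0.11 (adjusted p = 0.00403) respectively.

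JUNB had 166, 183 and 172 CPM with DMSO, 108, 99.6 and 109.7 CPM with NCP26, 157, 142 and 143 CPM with HFG and 169.7, 168 and 156 CPM with CFZ. The NCP26 libraries lay furthest below DMSO, and JUNB fell by 0.72 ± 0.07 on the log2 scale with NCP26 (adjusted p = 5.25e-11) and by 0.25 ± 0.07 with HFG (adjusted p = 0.00408), while -0.06 ± 0.10 with CFZ was not called. The fall with NCP26 was -0.51 with the GC offset and was called under every setting. That with HFG was -0.19 in one fit of all AMO1 groups with a term for the set and was not called there (adjusted p = 0.341), nor with the GC offset and the replicate block together. JUND was at 106, 121 and 116 CPM with DMSO and rose with CFZ, to 167, 177 and 167 CPM (0.59 ± 0.10, adjusted p = 0.00425, and 0.38 with the GC offset). It was at 119, 114 and 109 CPM with NCP26 (-0.02 ± 0.07, adjusted p = 0.835) and 116, 143 and 128 CPM with HFG (0.18 ± 0.08, adjusted p = 0.0624), and overlapped DMSO with both. JUND has the highest GC content of the members (69.9%), and with the GC offset its values were 0.25 with NCP26 (adjusted p = 0.00272) and 0.24 with HFG (adjusted p = 0.0135).

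FOS moved in opposite directions at 24 h. It had 5.13, 6.37 and 5.61 CPM with DMSO and 1.87, 3.26 and 3.03 CPM with NCP26, where all 3 libraries lay below DMSO (-1.08 ± 0.33, adjusted p = 0.00511, and -1.85 with adjusted p = 0.015 with the set term). At 6 to 10 counts with NCP26 and 14 to 28 with DMSO, FOS passed the filter through the DMSO group, in which it was high. With HFG it had 11.8, 10.3 and 6.29 CPM, of which one library lay within the range of DMSO (0.66 ± 0.28, adjusted p = 0.0487). This call was lost in 9 of the settings, among them DESeq2 and the block of replicate numbers, and the value was -0.10 with the set term. EGR1 rose with HFG, from 1.83, 0.944 and 2.20 CPM with DMSO to 10.1, 8.68 and 13.6 CPM (2.69 ± 0.34, 6.45-fold, adjusted p = 1.95e-06). At 4 to 11 counts with DMSO and 18 to 41 with HFG, EGR1 passed the filter only through the HFG group, in which it was high. With the set term the EGR1 value with HFG was -0.43 ± 1.25 (adjusted p = 0.826). In that fit the set is told apart from treatment in AMO1 cells at 24 h through CFZ alone, whose replicate 2 had an EGR1 level of 35.3 CPM and replicate 1, of the DMSO set, 2.10 CPM.

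IER2 rose with NCP26, from 83.5, 76.9 and 76.1 CPM to 103, 95.4 and 104 CPM (0.36 ± 0.08, adjusted p = 0.000126), and with HFG, to 107, 101 and 105 CPM (0.41 ± 0.07, adjusted p = 0.000122). With the set term the values were 0.37 (adjusted p = 0.125) and 0.42 (adjusted p = 0.0662). IER3 fell with NCP26, from 4.76, 4.95 and 6.41 CPM to 2.19, 2.28 and 2.42 CPM (-1.25 ± 0.34, adjusted p = 0.00209), a value of -1.11 with the set term (adjusted p = 0.184). At 7 to 8 counts with NCP26 and 13 to 32 with DMSO, IER3 passed the filter through the DMSO group. With HFG it had 5.06, 4.55 and 4.30 CPM and was not called (-0.26 ± 0.30, adjusted p = 0.469).

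With CFZ at 24 h the low members FOS, FOSB and EGR1 stood highest in a single library, while FOS lay above DMSO in all 3. Replicate 2 had 28.1 CPM of FOS, 21.3 CPM of FOSB and 35.3 CPM of EGR1, against 11.9 and 12.04, 0.700 and 4.27, and 2.10 and 1.55 CPM in replicates 1 and 3. EGR1 and FOSB did not pass the filter in this comparison. FOS was called (1.60 ± 0.38, 3.03-fold, adjusted p = 0.0166), as it was without replicate 2, at 1.06 ± 0.26 (adjusted p = 0.00199), and the call was lost without any one of the DMSO libraries (adjusted p = 0.0586 to 0.0727) and with all AMO1 groups in one fit with the set term (1.05, adjusted p = 0.0575). IER3 had 14.7, 18.04 and 8.54 CPM with CFZ, all above DMSO, and rose by 1.35 ± 0.31 (2.55-fold, adjusted p = 0.0146), a call lost without DMSO replicate 1 or 2 (adjusted p = 0.0588 and 0.0700). With CFZ replicate 1 as the only CFZ library, which is of the DMSO set, the values were 1.05 ± 0.35 for FOS (adjusted p = 0.0182) and 1.42 ± 0.33 for IER3 (adjusted p = 0.00126), on the assumption that this library varies like those of DMSO. That setting was chosen after seeing the data. Replicate 2 had the lowest total of the 3, 2387603 counts against 2823149 and 2545675.

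**Figure D4:**
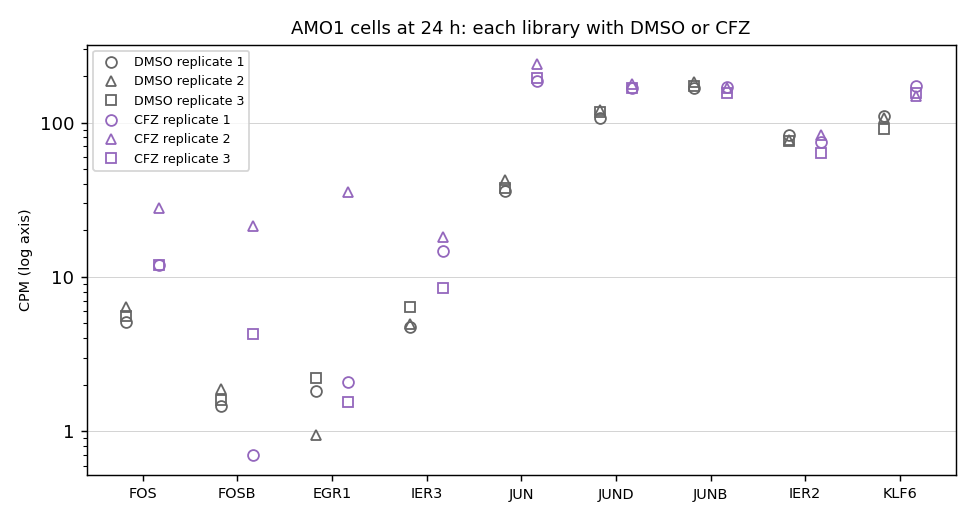
Level in CPM of the members in each AMO1 library with DMSO or CFZ at 24 h, one point per library, on a log axis. CFZ replicate 2 stands apart for FOSB (21.3 CPM) and EGR1 (35.3 CPM), while the 3 CFZ libraries of JUN lie together at 184 to 239 CPM.

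NCP22 and halofuginol left the abundant members near their DMSO levels in AMO1 cells, JUNB with NCP22 at 6 h apart. One of 8 tested members was called with NCP22 at 6 h (13.5% of all genes), JUNB at 118, 129.9 and 111 CPM (-0.25 ± 0.08, adjusted p = 0.0484), a call lost in 9 settings. These NCP22 libraries all lay below those of DMSO, and the JUNB value with HFG at 6 h was -0.26. Halofuginol at 6 h gave none of 8 (3.62% of all genes), NCP22 at 24 h none of 7 (0%) and halofuginol at 24 h none of 7 (0.183%). At an unadjusted p under 0.05 these 3 comparisons gave 1, 0 and 0 members, and DESeq2 called 0, 0 and 0. Over JUN, JUNB, JUND, IER2 and KLF6, the 95% intervals of the log2 fold change lay between -0.45 and 0.35 with NCP22 and between -0.39 and 0.34 with halofuginol at 6 h, and between -0.29 and 0.31 and between -0.37 and 0.27 at 24 h. Of all genes, halofuginol at 6 h, NCP22 at 24 h and halofuginol at 24 h had 2044, 638 and 1129 at an unadjusted p under 0.05. DESeq2 called 280, 3 and 65 genes there.

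Compounds at the same dose, time and line were compared directly in 12 pairs, 4 each of NCP26 with NCP22, HFG with halofuginol and NCP26 with HFG. The p-values of a member were adjusted over all genes of each comparison. They were also adjusted over those of the 12 pairs in which the member was tested. The latter, written below as over the 12 pairs, are given where they fall on the other side of the threshold.

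NCP26 and NCP22, which are analogues, differed in AMO1 cells at 6 h in 6 of 8 tested members (24.7% of all genes), with JUN higher by 2.29 ± 0.14 with NCP26 (adjusted p = 5.55e-07), EGR1 by 1.79 ± 0.28 (adjusted p = 0.000738), IER2 by 0.94 ± 0.10, FOS by 0.86 ± 0.26, JUND by 0.85 ± 0.10 and KLF6 by 0.50 ± 0.09. JUNB, at -0.21, was not called. The FOS call (adjusted p = 0.0307) was lost under DESeq2's Wald test, with all groups in one fit and without replicate 2 or 3 (adjusted p up to 0.168). At 24 h they differed in 5 of 7 (52.0%), with JUN higher by 1.65 ± 0.09, KLF6 by 1.33 ± 0.08 and IER2 by 0.35 ± 0.08 with NCP26, and JUNB (-0.71 ± 0.08) and IER3 (-1.39 ± 0.33) lower. Both groups of that comparison are of the second set, and the IER2 call was lost without replicate 3 (adjusted p = 0.0578). The value of JUND was -0.07 with an interval of -0.23 to 0.09, and 0.23 (adjusted p = 0.0226) with the GC offset. In L363-CFZr cells 2 of 9 members differed at 6 h (20.4%), IER2 by 0.85 ± 0.11 and JUN by 0.46 ± 0.13 (adjusted p = 0.0324), and 2 of 7 at 24 h (34.1%), JUND by -0.71 ± 0.09 and IER2 by 0.40 ± 0.10. There JUN lost its call under DESeq2's Wald test and without replicate 1 or 3 (adjusted p up to 0.344), and IER2 at 24 h without replicate 2 (adjusted p = 0.0672). FOS (-0.99 ± 0.35, adjusted p = 0.0665) and KLF6 (0.26 ± 0.10, adjusted p = 0.079) at 6 h passed only over the 12 pairs (adjusted p = 0.026 and 0.0348).

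HFG and halofuginol, a ketone and its alcohol, differed in AMO1 cells in 6 of 8 members at 6 h (51.7% of all genes). All 6 were higher with HFG, JUN by 3.22 ± 0.09 (adjusted p = 1.71e-14), EGR1 by 3.11 ± 0.26, FOS by 2.10 ± 0.29, JUND by 1.73 ± 0.07, IER2 by 1.57 ± 0.08 and KLF6 by 0.75 ± 0.07. JUNB, at -0.14, was not called. At 24 h they differed in 6 of 8 (56.6%), with EGR1 (2.92 ± 0.38), JUN (2.051 ± 0.11), KLF6 (1.23 ± 0.07), FOS (0.87 ± 0.30) and IER2 (0.48 ± 0.08) higher with HFG and JUNB lower (-0.37 ± 0.08). EGR1 had 1 to 8 counts with halofuginol there and passed the filter through the HFG group. Both groups are of the second set, and the HFG libraries are those compared with DMSO above. The FOS call was lost under DESeq2's Wald test and without replicate 1 or 2 (adjusted p up to 0.159). In L363-CFZr cells at 6 h 3 of 8 differed (47.3%), IER2 by 0.87 ± 0.07, JUN by 0.40 ± 0.12 and KLF6 by 0.27 ± 0.04, all higher with HFG, with the JUN call lost without replicate 2 (adjusted p = 0.0612). At 24 h 1 of 5 differed (21.9%), JUND by -0.51 ± 0.09, or -0.32 with the GC offset.

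NCP26 and HFG bind ProRS in different ways, and their members were compared at the same dose of 1 µM. In AMO1 cells at 6 h 5 of 8 members differed, while 28 of 10749 genes (0.260%) did. All 5 were lower with NCP26, EGR1 by -1.53 ± 0.21 (adjusted p = 0.0131), JUN by -1.07 ± 0.11 (adjusted p = 0.00498), FOS by -1.07 ± 0.18 (adjusted p = 0.0355), JUND by -0.81 ± 0.09 (adjusted p = 0.00498) and IER2 by -0.64 ± 0.10 (adjusted p = 0.0247). For each of them the 3 NCP26 libraries lay below the 3 HFG libraries, which are the libraries that gave the calls. The share of all genes without such overlap was not counted. At an unadjusted p under 0.05 there were 7 members and 1416 genes. KLF6 (-0.24 ± 0.08) was called only over the 12 pairs (adjusted p = 0.0275). Without replicate 1 of both groups all 5 kept their call, in a fit whose share of all genes called is not given here. NCP26 replicate 1 stood apart, with 15581 genes with a count from a total of 2500293, against 13577 and 13636 genes in replicates 2 and 3, which had larger totals. Its part in the low share of all genes called was not tested. Without replicate 2 none of the 5 kept its call, with adjusted p from 0.0937 (JUN) to 0.41 (FOS and IER2), and without replicate 3 none did, with adjusted p from 0.0922 (EGR1) to 0.398 (FOS), while all 5 kept their direction. With the replicate block FOS (adjusted p = 0.0774) and IER2 (adjusted p = 0.071) were not called, nor was EGR1 with all groups in one fit (adjusted p = 0.0786).

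At 24 h 6 of 8 members differed in AMO1 cells (44.9% of all genes), again all lower with NCP26. EGR1 was 1.25, 0.977 and 0.606 CPM with NCP26 against 10.1, 8.68 and 13.6 CPM with HFG (-3.50 ± 0.39, adjusted p = 8.02e-07), FOS differed by -1.75 ± 0.35 (adjusted p = 0.000482), IER3 by -0.99 ± 0.36 (adjusted p = 0.0314, and 0.0515 over the 12 pairs), JUNB by -0.49 ± 0.07 (adjusted p = 1.97e-05), JUN by -0.22 ± 0.07 (adjusted p = 0.0201) and JUND by -0.20 ± 0.08 (adjusted p = 0.04). DESeq2 called 3 of these, EGR1, FOS and JUNB, which were also called under every other setting. EGR1 (2 to 4 counts with NCP26), FOS (6 to 10) and IER3 (7 to 8) passed the filter through the HFG group, in which they were high. The IER3 call was lost in 8 settings, among them every left-out replicate (adjusted p up to 0.167). That of JUN was lost under DESeq2, with all groups in one fit and without replicate 1 (-0.12, adjusted p = 0.231) or 2, and that of JUND under DESeq2, with all groups in one fit and without replicate 2 (-0.12, adjusted p = 0.326) or 3. The JUND value was 0.037 with the GC offset. KLF6 differed by -0.06, with an interval of -0.18 to 0.06, and IER2 by -0.06, with an interval of -0.21 to 0.09. In L363-CFZr cells at 6 h none of 9 members and 0% of all genes were called, with 0 members and 1188 genes at an unadjusted p under 0.05 and 0 members and 0 genes called by DESeq2. The intervals of JUN, JUNB, JUND, IER2 and KLF6 lay between -0.31 and 0.49. NCP26 is of the second set here and HFG of the third, so compound and set cannot be told apart. Log2 fold changes and GC content correlated across genes at 0.51 in this comparison. At 24 h 1 of 6 differed (12.9%), IER2 by 0.32 ± 0.08 (adjusted p = 0.0258, lost with all groups in one fit and without each replicate in turn, at up to 0.166), and JUN (0.30 ± 0.12) and JUND (-0.22 ± 0.08) passed only over the 12 pairs (adjusted p = 0.0419 and 0.0323).

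**Figure D5:**
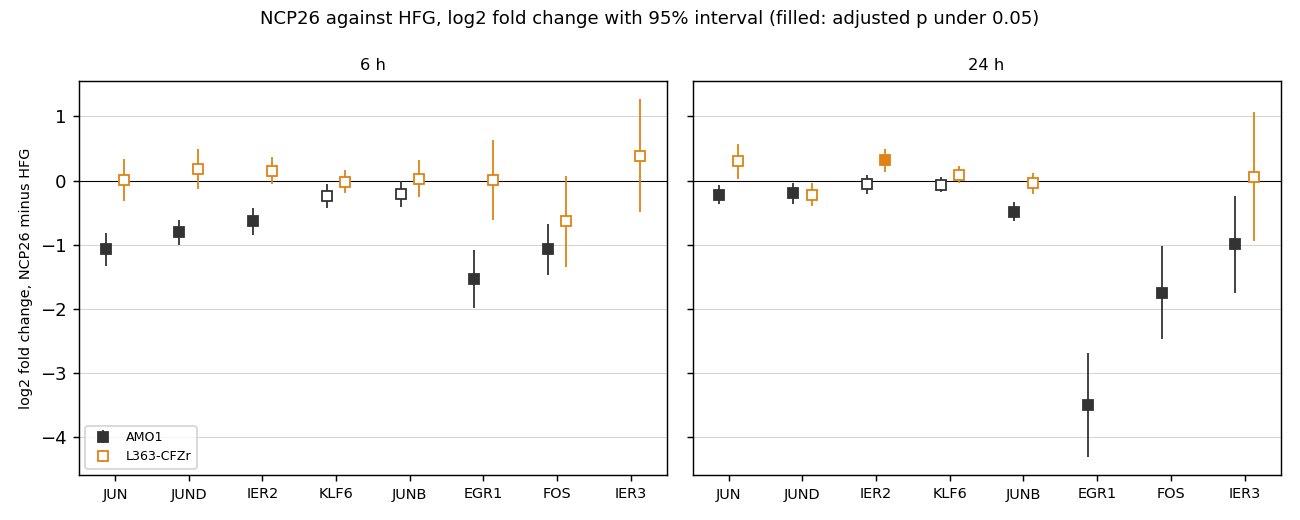
Log2 difference of NCP26 against HFG at 1 µM (bars are 95% intervals) for the tested members in AMO1 and L363-CFZr cells at 6 h and 24 h; filled points are called at an adjusted p under 0.05. In AMO1 cells at 6 h EGR1, JUN, FOS, JUND and IER2 lie between -1.53 and -0.64, and in L363-CFZr cells IER2 at 24 h is the only filled point.

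With NCP26 and HFG fewer members were called against DMSO in L363-CFZr than in AMO1 cells. At 24 h none was called, where 7.09% and 1.17% of all genes were. JUN stayed between 26 and 47.5 CPM in all 30 libraries and was not called in any of the 8 comparisons with DMSO. It had 39.1, 35.8 and 30.3 CPM with DMSO at 6 h, 42.9, 38.1 and 37.3 CPM with NCP26 (0.20 ± 0.14, interval -0.10 to 0.50) and 32.3, 47.5 and 38.0 CPM with HFG (0.19 ± 0.13, interval -0.09 to 0.47). At 24 h the values were 0.14 ± 0.15 with NCP26 and -0.16 ± 0.15 with HFG. With the GC offset JUN was called with HFG at 6 h, at 0.47 (adjusted p = 0.00754), and with the set term the value was -0.01 (adjusted p = 0.982). In L363-CFZr cells the set is told apart from treatment through NCP22 at 6 h alone, with replicates 1 and 2 in the second set and replicate 3 in the third.

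The members that rose in L363-CFZr cells were IER2 and KLF6 at 6 h. With NCP26 2 of 9 members were called (18.8% of all genes) and with HFG 4 of 8 (54.5%). IER2 had 65.4, 61.7 and 60.3 CPM with DMSO, 95.6, 102 and 85.3 CPM with NCP26 (0.62 ± 0.11, adjusted p = 0.00389) and 86.4, 81.4 and 83.8 CPM with HFG (0.47 ± 0.08, adjusted p = 5.51e-05). KLF6 had 255, 305 and 274 CPM with DMSO, 344, 337 and 342 CPM with NCP26 (0.32 ± 0.10, adjusted p = 0.0463) and 336, 332 and 361 CPM with HFG (0.34 ± 0.07, adjusted p = 0.000133). All treated libraries of both genes lay above DMSO. The KLF6 call with NCP26 was lost in 10 settings, the IER2 call with HFG with the set term (0.34, adjusted p = 0.185), and KLF6 with HFG was 0.46 there (adjusted p = 0.0247).

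JUNB and JUND were called lower in L363-CFZr cells at 6 h with HFG and with halofuginol, in comparisons that cross sets. JUND had 91.7, 95.03 and 102 CPM with DMSO, 67.9, 84.4 and 75.6 CPM with HFG (-0.32 ± 0.09, adjusted p = 0.00292) and 78.4, 79.5 and 82.6 CPM with halofuginol (-0.27 ± 0.07, adjusted p = 0.00965). JUNB had 136, 141 and 136 CPM with DMSO, 105, 139 and 107 CPM with HFG (-0.22 ± 0.09, adjusted p = 0.0411) and 109.6, 113 and 117 CPM with halofuginol (-0.28 ± 0.06, adjusted p = 0.00377). Log2 fold changes and GC content correlated across genes at -0.57 with HFG and -0.72 with halofuginol. With the GC offset none of these 4 values was called, at 0.082 and 0.012 for JUND and 0.15 and -0.03 for JUNB. None was called with the set term either, which rests on the NCP22 group at 6 h alone. The JUNB call with HFG was also lost under DESeq2's Wald test, with all groups in one fit and without any one of 4 libraries (HFG replicates 1 and 3 and DMSO replicates 1 and 2). Halofuginol called 3 of 8 members at 6 h (25.8% of all genes), the third being IER2 at 44.4, 46.6 and 52.6 CPM (-0.39 ± 0.09, adjusted p = 0.00468), which was -0.14 with the GC offset (adjusted p = 0.454).

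The remaining comparisons of L363-CFZr cells called no member. They were NCP26 at 24 h (none of 8, 7.09% of all genes), HFG at 24 h (none of 5, 1.17%), NCP22 at 6 h (none of 8, 0%) and 24 h (none of 8, 0%) and halofuginol at 24 h (none of 7, 0%). At an unadjusted p under 0.05 these gave 2, 1, 2, 0 and 0 members, and DESeq2 called 1, 0, 0, 0 and 0. Over all genes, the 3 comparisons with 0% called had 666, 213 and 410 genes at an unadjusted p under 0.05, and DESeq2 called 1, 0 and 0. JUND with NCP26 at 24 h had 87.2, 82.2 and 73.6 CPM against 135, 103 and 117 CPM with DMSO, without overlap (-0.54 ± 0.15, adjusted p = 0.0695). Over the 5 abundant members the intervals reached from -0.88 to 0.67 with NCP26 and -0.62 to 0.48 with HFG at 24 h, -0.55 to 0.26 and -0.38 to 0.48 with NCP22 at 6 h and 24 h, and -0.38 to 0.60 with halofuginol at 24 h. L363-CFZr DMSO replicate 2 at 24 h stood apart, with 14353 genes with a count from a total of 2487872. Replicates 1 and 3 had 13564 and 13663 genes and larger totals. Replicate 2 had 120.4 CPM of JUNB against 175 and 168 CPM in the other replicates. Without it JUND (-0.63, adjusted p = 0.00058), IER2 (0.31, adjusted p = 0.035) and KLF6 (0.25, adjusted p = 0.0424) were called with NCP26 at 24 h and JUND with HFG (-0.40, adjusted p = 0.00045). The share of all genes called without it is not given here. In the direct comparisons at 24 h JUND was lower with NCP26 than with NCP22 (-0.71, 34.1% of all genes called). It was also lower with HFG than with halofuginol (-0.51, 21.9%), and both were called under every setting.

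The difference of the response between the lines was tested as an interaction. For NCP26 2 of 9 members were called at 6 h (2.71% of all genes), JUN (-1.92 ± 0.20, adjusted p = 3.29e-05) and JUND (-0.86 ± 0.17, adjusted p = 0.00945), both lower in L363-CFZr cells. At 24 h 3 of 7 were called (5.41%), JUN (-1.59 ± 0.16, adjusted p = 0.000259) and KLF6 (-1.06 ± 0.15, adjusted p = 0.00228), both lower, and JUNB (0.77 ± 0.19, adjusted p = 0.0361), higher. For HFG 5 of 9 were called at 6 h (20.7%), all lower in L363-CFZr cells, JUN (-3.00 ± 0.18, adjusted p = 8.64e-11), EGR1 (-2.60 ± 0.41), JUND (-1.85 ± 0.12), FOS (-1.28 ± 0.31) and IER2 (-1.21 ± 0.13). At 24 h 4 of 8 were called (16.9%), EGR1 (-2.51 ± 0.68, adjusted p = 0.0228), JUN (-2.09 ± 0.17), KLF6 (-1.19 ± 0.15) and JUND (-0.51 ± 0.16, adjusted p = 0.0417). KLF6 with NCP26 at 6 h differed between the lines by -0.08, with an interval of -0.39 to 0.23. Without replicate 1 or without replicate 3, the NCP26 effects kept 1 of these 5 calls, JUN at 6 h, and JUNB at 24 h was also lost with the replicate block. Of the HFG effects, FOS at 6 h (adjusted p up to 0.0743), EGR1 at 24 h (up to 0.233) and JUND at 24 h (up to 0.283) were lost without replicate 1 or 3. EGR1 at 24 h was also lost with all groups in one fit (adjusted p = 0.0601), and JUND at 24 h without the filter, with the replicate block (adjusted p = 0.0679) and with the GC offset (-0.34, adjusted p = 0.166). In the HFG comparison at 6 h the L363-CFZr cells cross sets, and in the NCP26 and HFG comparisons at 24 h the AMO1 cells do.

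The DMSO libraries of AMO1 cells are all of the first set, and those of L363-CFZr cells of the second at 6 h and the third at 24 h, so that line and set cannot be told apart between them. With DMSO alone KLF6 was higher in L363-CFZr cells than in AMO1 cells, by 0.96 ± 0.09 at 6 h (1.94-fold, adjusted p = 2.20e-08) and 1.05 ± 0.14 at 24 h (2.07-fold, adjusted p = 0.00102). At 6 h 2 of 8 members were called (60.2% of all genes), the other being IER2 (0.28 ± 0.12, adjusted p = 0.042), which was not called under DESeq2's Wald test, with the replicate block, with the GC offset (0.082, adjusted p = 0.541) or without replicate 1 or 2, and at 24 h 1 of 7 (39.9%). JUN was not called at 6 h (0.32 ± 0.15, adjusted p = 0.0612) or at 24 h (-0.24 ± 0.14, adjusted p = 0.205). The JUND value changed sign with the GC offset, to -0.28 at 6 h (adjusted p = 0.00975) and -0.42 at 24 h (adjusted p = 0.0379).

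DMSO libraries also differed between 24 h and 6 h in AMO1 cells, within the first set, in 5 of 7 members (46.5% of all genes). IER2 (0.64 ± 0.11, adjusted p = 2.91e-05), JUN (0.51 ± 0.12), JUND (0.36 ± 0.09) and JUNB (0.29 ± 0.07) were higher at 24 h and KLF6 was lower (-0.47 ± 0.10, adjusted p = 0.000377). Without replicate 2 of both times 3 members were called, JUN (adjusted p = 0.0916) and JUNB (adjusted p = 0.0648) being lost, and without replicate 3 KLF6 was at -0.27. In L363-CFZr cells none of 8 was called (14.8% of all genes), with 1 at an unadjusted p under 0.05 and 0 called by DESeq2. KLF6 was -0.39 ± 0.15 there (adjusted p = 0.0957), and without replicate 2 of both times 5 members were called. For both lines the share of all genes called without replicate 2 is not given here.

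The change from 6 h to 24 h of each response in AMO1 cells, against DMSO of the same time, was called for 5 of 9 members with NCP26 (17.5% of all genes), 4 of 9 with HFG (39.6%) and 2 of 9 with CFZ (19.6%). JUND fell back with all 3 agents, by 0.73 ± 0.12, 1.33 ± 0.12 and 0.80 ± 0.13 on the log2 scale, and JUN with HFG (-1.26 ± 0.13) and CFZ (-1.05 ± 0.17) but not to the threshold with NCP26 (-0.41 ± 0.17, adjusted p = 0.102). IER2 dropped by 0.67 ± 0.14 with NCP26 and 1.24 ± 0.13 with HFG. FOS (-1.49 ± 0.39) and EGR1 (-2.04 ± 0.59) were lower at 24 h with NCP26, while EGR1 with HFG differed by -0.05 with a wide interval of -1.40 to 1.29. The FOS call with NCP26 was lost without any one replicate (adjusted p up to 0.131) and that of EGR1 under DESeq2's Wald test, with all groups in one fit (adjusted p = 0.288) and without replicate 1 or 3. The calls of IER2 with NCP26 and of JUND with CFZ were lost without replicate 2 (adjusted p = 0.0621) and replicate 1 (adjusted p = 0.0543) respectively. KLF6 was the one called member to go up with time, by 0.83 ± 0.14 with NCP26 and 0.65 ± 0.12 with HFG. The 24 h arms of these comparisons cross sets and differ in handling from those of 6 h.

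Partners of AP-1 were read from a list of 11 genes. This list and those of the next paragraphs were chosen with earlier results of these data known. Their counts and medians are therefore descriptions only. At 6 h in AMO1 cells 5 of 10 tested partners rose and 1 fell with NCP26, 6 and 1 with HFG and 4 and 1 with CFZ, where 18.1%, 27.7% and 14.1% of all genes rose. The median log2 fold change was 0.49, 0.64 and 0.26 over the list and -0.01, 0.01 and -0.01 over all genes. ATF3, a stress-induced partner and a target of the integrated stress response, rose by 2.92 ± 0.15, 3.66 ± 0.11 and 4.09 ± 0.11 with NCP26, HFG and CFZ, and FOSL2, the FOS family member FRA-2, by 1.14 ± 0.20, 2.72 ± 0.15 and 1.2 ± 0.17. In L363-CFZr cells at 6 h, where JUN was not called, ATF3 rose by 2.75 ± 0.16 with NCP26 and 2.65 ± 0.16 with HFG, with 2 of 9 and 3 of 9 partners higher and 2 and 2 lower, where 9.81% and 26.9% of all genes rose and 8.99% and 27.5% fell. BATF2, an interferon-responsive partner of JUN proteins, fell there by 1.18 ± 0.10 and 1.26 ± 0.09. In AMO1 cells at 6 h BATF2 was also called lower with NCP26 (-0.81 ± 0.14) and HFG (-0.37 ± 0.13), and higher with CFZ (0.35 ± 0.12). At 24 h in AMO1 cells BATF2 rose with HFG (1.32 ± 0.09) and CFZ (1.88 ± 0.11) and was not called with NCP26 (0.20 ± 0.10). FOSL2 was called lower there with NCP26 (-0.61 ± 0.12) and HFG (-1.01 ± 0.16) and was not called with CFZ (-0.02 ± 0.17). ATF3 was still called higher, by 2.30 ± 0.10, 2.24 ± 0.11 and 1.87 ± 0.13 with NCP26, HFG and CFZ. Of the tested partners 4 of 9, 4 of 9 and 3 of 8 rose at 24 h, and 2, 2 and 1 fell. Of all genes 29.8%, 28.5% and 13.1% rose there, and 30.9%, 30.5% and 13.98% fell. These 24 h comparisons cross sets except for CFZ replicate 1.

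Of 30 other immediate early genes, 11 of 24 tested rose and 4 fell with NCP26 at 6 h in AMO1 cells, 13 of 24 and 3 with HFG and 10 of 22 and 4 with CFZ, with medians of 0.18, 0.42 and 0.30. Of all genes 18.1%, 27.7% and 14.1% rose there, and 19.2%, 26.6% and 12.8% fell. GADD45B, a stress gene upstream of p38, rose by 2.56 ± 0.11 with NCP26, the nuclear receptors NR4A2 and NR4A3 by 3.21 ± 0.30 and 3.20 ± 0.27 with HFG, and PPP1R15A, the phosphatase subunit that reverses eIF2α phosphorylation, and DUSP1, a phosphatase of JNK and p38, by 2.11 ± 0.08 and 2.19 ± 0.16 with CFZ. NR4A2 and NR4A3 were also called higher with NCP26 at 6 h, by 1.32 ± 0.43 and 1.73 ± 0.37. Genes are named with the agents under which their changes were largest, so that naming with one agent does not exclude a change with another. PPP1R15A was called higher with NCP26 in AMO1 cells at 24 h (1.33 ± 0.05). In L363-CFZr cells it was called higher with NCP26 at 6 h (0.79 ± 0.11) and 24 h (1.48 ± 0.12). GADD45B was called higher with HFG in AMO1 cells at 24 h (1.88 ± 0.10). At 24 h 7 of 24 rose and 8 fell with NCP26, and 8 of 23 rose and 8 fell with HFG, against 29.8% and 28.5% of all genes that rose and 30.9% and 30.5% that fell. KLF2, a KLF family factor of quiescence, fell at 24 h with NCP26 (-1.5 ± 0.08), HFG (-3.50 ± 0.12) and CFZ (-2.12 ± 0.23), where KLF6 rose. In L363-CFZr cells at 6 h NR4A2 rose with NCP26 (1.05 ± 0.31) and HFG (1.29 ± 0.28), and NR4A3 with HFG (2.34 ± 0.32). Of the listed genes 6 of 25 and 7 of 24 were higher with NCP26 and HFG there, and 1 and 4 lower. This stands beside the same 9.81% and 26.9% of all genes that rose and 8.99% and 27.5% that fell.

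The list of upstream kinases, phosphatases and factors held 29 genes. With NCP26 at 6 h in AMO1 cells 9 of 28 rose and 5 fell, with HFG 13 and 7, and with CFZ 2 of 27 and 3. These stand beside 18.1%, 27.7% and 14.1% of all genes that rose and 19.2%, 26.6% and 12.8% that fell. DUSP16, a phosphatase of JNK, rose by 1.25 ± 0.13 with NCP26 and 1.91 ± 0.11 with HFG, and SPRY2, an inhibitor of receptor signalling to ERK, by 1.35 ± 0.33 and 1.28 ± 0.31. With CFZ DUSP6, a phosphatase of ERK, fell by 1.17 ± 0.20. Medians over this list were 0.21, 0.19 and -0.03.

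The genes whose group means followed those of a member most closely were read as a description, over 12 groups in AMO1 and 10 in L363-CFZr cells that share time points, library sets and DMSO controls. For JUN in AMO1 cells they were BRD2 (Pearson's r = 0.97), ATF3 (0.96) and MED1 (0.93), and for KLF6 STK40 (0.98), VTI1A (0.96) and SLAMF7 (0.96). EGR1 and FOS had RING1 (0.89 and 0.92) and RNF135 (0.88 and 0.94) in common there. In L363-CFZr cells those of JUN were KRBOX4 (0.88), LRRC37B (0.88) and DUSP16 (0.86).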

How the data were processed

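RNA of 66 samples of AMO1 and L363-CFZr cells was prepared by the authors as directional poly(A) libraries and sequenced on an Illumina NextSeq. The deposited table holds counts per Ensembl gene, made by the authors with kallisto. The study's methods name GRCh38 with 31-mers and the submitters' processing notes name hg19. Of the kallisto run, the version, annotation, gene-summing step and strand setting were not given in the sources used here. Library totals lay between 1666325 and 6596543 counts, and intervals and floors cover counting error only where they rest on single libraries.

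Groups came from the labels, with 3 replicates each. The table paired no symbols, and 19299 of 20167 identifiers matched GENCODE v44, from which names, lengths, GC content and GRCh38 positions were taken. Counts were filtered with filterByExpr (minimum count 10, minimum total 15), scaled by TMM and tested with edgeR 4.0.16 (R 4.3.3) by the quasi-likelihood F test, two-sided, with only the compared groups in a fit and Benjamini-Hochberg adjustment over all tested genes at 0.05. The SE was derived from the F statistic. Line and time effects were interaction terms. Alternatives were DESeq2 1.42.0 (its Wald test and its size factors), no filter, the replicate number as a block, an offset for GC content, all groups of a line in one fit, the same with the set of sample numbers as a term, and leaving out each replicate. The scripts were tested on simulated data.

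Replicates were compared as 66 pairs within groups, none of which was identical, and their counts differed by 1.29 to 36.3 times the Poisson variance. The members, context lists and alternatives were chosen with earlier results of these data known. Named genes of the context lists were the largest called changes with a mean of at least 5 CPM, and the genes most like a member were the 3 with the highest correlation of group means.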

Additional observations from a re-analysis of the deposited data

Results flagged for a closer look

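These results stand out because a test of the difference itself, between the lines or between the time points, passed the threshold of the quasi-likelihood F test of edgeR after adjustment by the Benjamini-Hochberg method. Values are differences of log2 fold changes against DMSO.

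Between the lines, L363-CFZr minus AMO1, the NCP26 response at 6 h differed by -1.92 for JUN and -0.86 for JUND, and at 24 h by -1.59 for JUN, 0.77 for JUNB and -1.06 for KLF6. Without replicate 1 or 3 only JUN at 6 h kept its call among these. The HFG response differed at 6 h by -3.00 for JUN, -2.60 for EGR1, -1.85 for JUND, -1.28 for FOS and -1.21 for IER2. At 24 h it differed by -2.51 for EGR1, -2.09 for JUN, -1.19 for KLF6 and -0.51 for JUND. The AMO1 arms at 24 h with NCP26 and HFG and the L363-CFZr arm at 6 h with HFG cross sets, and the part of the sets in these values was not tested. The calls of FOS at 6 h and of EGR1 and JUND at 24 h were lost without replicate 1 or 3 (adjusted p up to 0.0743, 0.233 and 0.283), that of EGR1 also with all groups in one fit, and that of JUND also with the GC offset, the replicate block and no filter.

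Between the times in AMO1 cells, 24 h minus 6 h, the NCP26 response differed by -2.04 for EGR1, -1.49 for FOS, -0.73 for JUND, -0.67 for IER2 and 0.83 for KLF6. The HFG response differed by -1.33 for JUND, -1.26 for JUN, -1.24 for IER2 and 0.65 for KLF6, and the CFZ response by -1.05 for JUN and -0.80 for JUND. With NCP26 the FOS call was lost without any one replicate (adjusted p up to 0.131), and the EGR1 call under DESeq2's Wald test, with all groups in one fit and without replicate 1 or 3 (adjusted p up to 0.288). The sets of sample numbers and the handling of lysates differ along the same lines as time, and their part in these values was not tested.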

How the results depend on the processing

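Of 120 called member values among 320 tested, 71 were called under all settings, 49 lost the call under at least one and 6 of these changed sign. DESeq2's Wald test made 110 calls, its size factors 119, no filter 122, the GC offset 119 and all groups in one fit 125. The replicate numbers were not treated as pairs in the main fits. In 0 of 18 comparisons were all 3 correlations of deviations over 0.1, with single values up to 0.36. Deviations from a mean of 3 libraries depend on each other, so these correlations cannot exclude pairing. With the replicate block 113 calls were made and 23 of 28 counts were equal. Where a cause of a change is not given by the setting's own construction, the cause was not tested.

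Counts of called members that moved were these, while the shares of all genes called under the same settings are not given here. With the set term HFG at 24 h in AMO1 gave 3 (6 without it), HFG at 6 h in L363-CFZr 1 (4 without it) and halofuginol at 6 h there 0 (3 without it). Halofuginol at 6 h in L363-CFZr also gave 0 with the GC offset, with or without the replicate block, and 1 with all groups in one fit. NCP22 at 6 h in AMO1 went from 1 to 0 under DESeq2's size factors, its Wald test, no filter and the GC offset with or without the block, and gave 0 to 1 with a replicate left out. NCP26 at 6 h in L363-CFZr went from 2 to 1 under the Wald test, no filter, the replicate block and the GC offset with or without the block (1 to 3 with a replicate left out). NCP26 at 24 h there went from 0 to 1 under the Wald test and 2 with all groups (0 to 3), and HFG at 24 h gave 0 to 1. CFZ at 24 h gave 3 to 6 (5 with all replicates). Between lines with DMSO, 6 h went from 2 to 1 under the Wald test and the block (1 to 3), and 24 h from 1 to 2 with the GC offset. DMSO at 24 h against 6 h gave 3 to 6 in AMO1 and 0 to 5 in L363-CFZr, the latter 4 with all groups. NCP26 against HFG went from 12 over the 4 contexts to 7 with all groups (3 to 10), and the NCP26 line effect gave 1 to 6 (5).

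Signs changed with the GC offset, and likewise with the block beside it, for JUND with NCP26 at 24 h in AMO1 (0.25 and 0.25), against NCP22 (0.23 and 0.24) and against HFG there (0.037 and 0.038), with HFG (0.082 and 0.085) and halofuginol (0.012 and 0.012) at 6 h in L363-CFZr, and between lines with DMSO at 6 h (-0.28 and -0.28) and, without the block, 24 h (-0.42), and for JUNB with HFG at 6 h in L363-CFZr (0.15 and 0.15). With the set term FOS (-0.10) and EGR1 (-0.43) with HFG at 24 h in AMO1 changed sign. Members under about 10 counts per library (FOSL1, FOSB, and EGR1 and IER3 in part) were limited by depth.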
